A study of Bos taurus with 94 samples.

Results

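The pituitary and pineal genes described here are 80 of the 24616 bovine gene identifiers measured. They were chosen from the measured values themselves. For each gene the level, log2(FPKM + 1), was taken in the libraries labelled anterior pituitary, posterior pituitary, pituitary stalk with median eminence, and pineal gland. FPKM counts sequenced fragments per length of transcript, scaled to the fragments mapped in the library. The lowest of these 4 levels minus the 95th percentile of the level in the other 90 libraries is called the gap, and the 80 genes with the largest gap are the members. The rule also sets aside 3 identifiers. Of these, 1 would have ranked 1 with a gap of 7.92. The gaps of the other 2 were -2.63 and -5.10, so they would not have entered. These 2 were low only in the stalk library among the glands, with 22.8 and 1.19 FPKM. They had 277851 and 85309 FPKM in the anterior pituitary and 60548 and 110316 FPKM in the pineal gland.

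RNA was sequenced from 94 snap-frozen tissues, 1 library each, all from Hereford cattle whose age label reads adult, with no animal or physiological state named. That label also stands on a library labelled fetal_testis, so it may not hold for every library, and 1 library is labelled Cancer_eye. The 4 gland libraries are thus 4 different tissues and not replicates of one. They are set against 90 libraries of other organs, among them 8 brain regions, 6 parts of the intestine, 2 inner eye tissues (labelled Pigment_epithelium_eye and Ant_Eye) and 2 mammary libraries. FPKM totals ran from 662521 to 794234 in the glands and from 585122 to 1062591 in the other 90 libraries, and read depth is unknown. Neither the file nor the gene table at hand pairs these identifiers with names (0 of 24616 matched), so members are given by identifier, no role is given to any of them, and the gland labels could not be checked against hormone genes.

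As background, the anterior pituitary makes peptide hormones that act on the gonads, thyroid, adrenal cortex, mammary gland and growth. The posterior pituitary is nervous tissue that releases hormones made in the hypothalamus, and the stalk and median eminence carry nerve endings and portal vessels between the hypothalamus and the gland. The pineal gland secretes melatonin at night and descends from the same roof of the brain that gives rise to light-sensitive organs in other vertebrates. Peptide hormones of the pituitary are stored in granules before release, as are those of the scattered hormone cells of the gut, whereas melatonin is released as it is made.

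The mammary libraries differed widely. The library labelled Mammary, called mammary replicate 1, had 67 of 80 members at 1 FPKM or more, against 19 in mammary replicate 2, labelled Mammary_gland. The 3 set-aside identifiers held 46.6% of all FPKM in the anterior pituitary, 26.9% in the pineal gland, 21.3% in the posterior pituitary and 4.48% in the stalk library. They held 8.43% in mammary replicate 1 and were listed at 0 in mammary replicate 2. Some counts that mammary replicate 1 enters are also given without it. The counts of breadth outside the glands, and of members higher outside than in all 4 glands, are given only with it. FPKM is relative to the whole library, so differences between glands are also given relative to the median gene.

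The members ranged from genes measured almost nowhere else to genes with a modest excess over widespread expression. The gap, which chose them and is given without a test, had a median of 0.92 and ran from 0.54 to 6.43. It was 4 or more in 6 members, 2 to 4 in 13, 1 to 2 in 17 and under 1 in 44. The 3 members just inside the threshold had gaps of 0.55, 0.55 and 0.54, and the 3 genes just outside had 0.54, 0.54 and 0.53, so the edge of the list is not a natural break. Of the 80 members, 75 reached 1 FPKM in all 4 glands, 44 reached 10, 12 reached 100 and 4 reached 1000.

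The member with the largest gap, ENSBTAG00000010889, had 191 FPKM in the anterior pituitary, 103 in the posterior pituitary, 138 in the stalk library and 686 in the pineal gland. In the other 90 libraries it was listed at 0 in 73, and it reached 1 FPKM in 1 of them, mammary replicate 1, with 259 FPKM. Without that library its highest level outside the glands was 0.719 FPKM, in the descending colon. ENSBTAG00000011124, second by the gap, had 102, 97.3, 189 and 161 FPKM in the same order of glands. It was listed at 0 in 52 of the other libraries and was highest there in mammary replicate 1, with 48.9 FPKM, followed by the Ant_Eye library with 1.43 FPKM. Mammary replicate 1 lay within the range of the glands for the first gene and below it for the second, and all other libraries lay far below the glands.

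ENSBTAG00000003212 had the highest FPKM of the members in 3 glands, with 6412 FPKM in the anterior pituitary, 4052 FPKM in the posterior lobe and 8902 FPKM in the pineal gland. It had 1419 FPKM in the stalk library, where ENSBTAG00000037899 was highest with 2068 FPKM. ENSBTAG00000003212 was not confined to the glands, with a median of 9.12 FPKM and 88 of the 90 other libraries at 1 FPKM or more. ENSBTAG00000021588 was second in the anterior lobe with 2995 FPKM and ENSBTAG00000017475 in the posterior pituitary with 2375 FPKM. ENSBTAG00000032613 was second in the stalk library with 1500 FPKM and ENSBTAG00000038735 in the pineal gland with 5728 FPKM. ENSBTAG00000017475 was expressed everywhere: its lowest, median and highest levels outside the glands were 101, 378 and 848 FPKM. Together the 80 members made up 2.40% of all FPKM in the anterior pituitary, 1.74% in the posterior pituitary, 2.17% in the stalk library and 4.0% in the pineal gland, against a median of 0.0843% in the other 90 libraries.

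Breadth outside the glands varied as widely as the gap. A member reached 1 FPKM in a median of 16 of the 90 other libraries, against a median of 85 for the 14888 genes at 1 FPKM or more in at least 1 gland. Of the 80 members, 24 reached it in 5 or fewer other libraries and 3 in none, while 14 reached it in 45 or more and 3 in all 90. Of the 14888 genes, 304 reached it in 5 or fewer and 42 in none, while 11917 reached it in 45 or more and 4560 in all 90. In 37 of the 80 members the median over the other libraries was 0, against 833 of the 14888 genes. These figures follow in part from the rule, which asked for a low 95th percentile, and are a description. They count mammary replicate 1 among the 90 libraries.

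**Figure D1:**
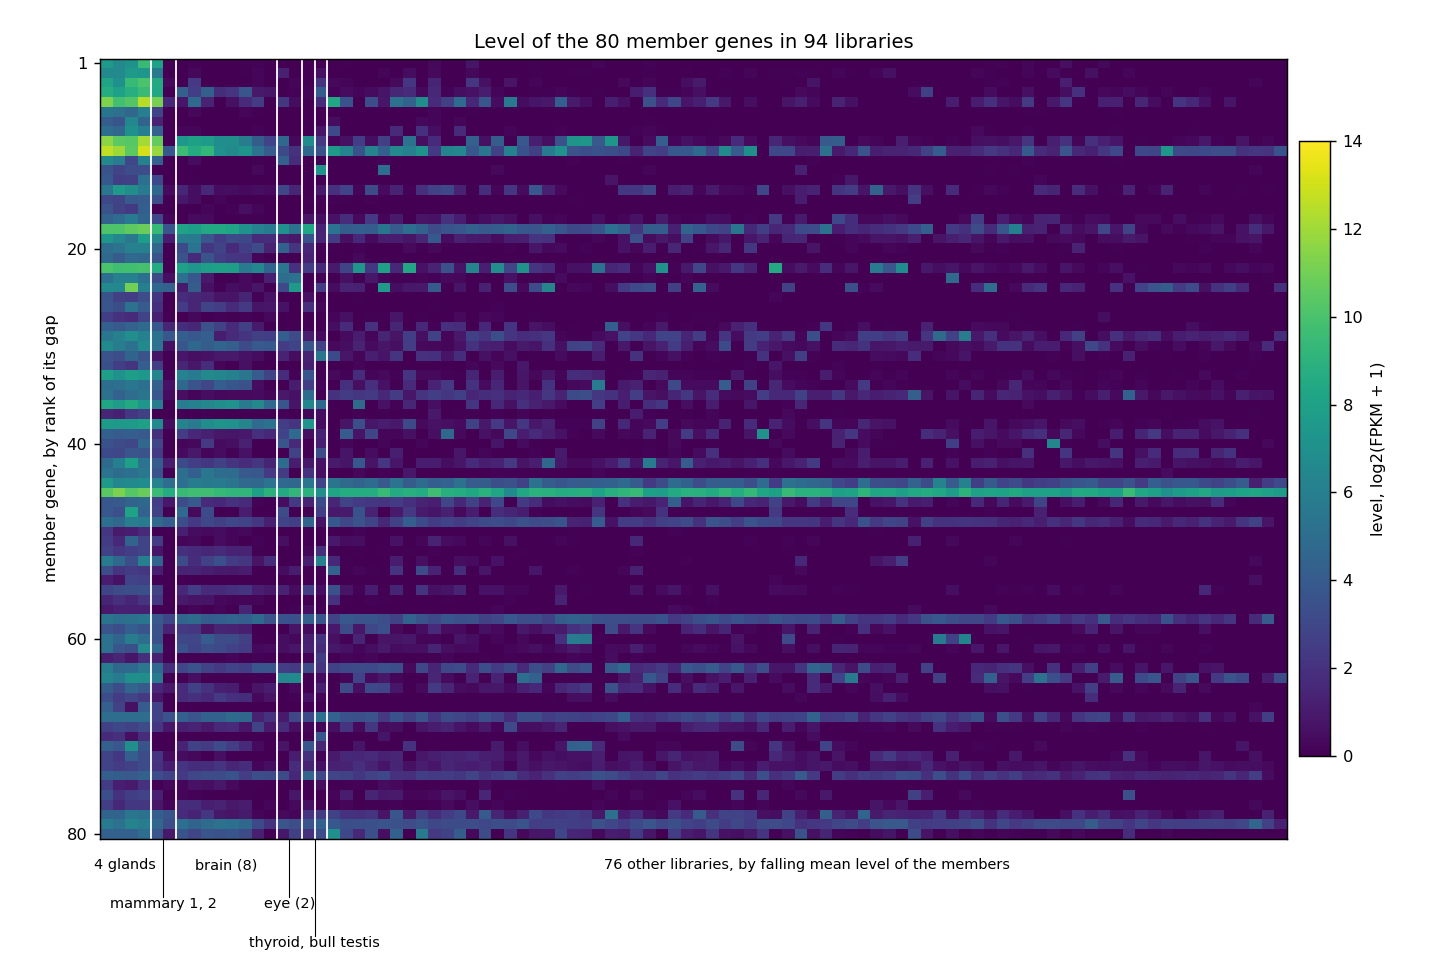
Level of the 80 members as log2(FPKM + 1), colour scale from 0 to 14, with 1 row per member in order of the gap and 1 column per library: the 4 glands (anterior, posterior, stalk, pineal), mammary replicates 1 and 2, brain, the 2 inner eye libraries, thyroid and bull testis, then the other 76. The glands and mammary replicate 1 are bright in most rows, brain in many, and a few rows are bright in every library.

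All 80 members were called higher in the 4 glands than in the other 90 libraries by limma, against 5.95% of the 18031 genes tested. Nothing is read from this, since the same contrast chose the members. In 25 members every gland lay above every one of the 90 other libraries, against 0.202% of the 14888 genes, and without mammary replicate 1 this held for 38 members, against 0.309%. In the other 55 members at least 1 library outside reached a level above the lowest gland, and in 17 it lay above all 4 glands. In bulk tissue, fewer cells of a type and less RNA per cell cannot be told apart.

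The mean level of the members on the log2(FPKM + 1) scale was 5.24 in the pineal gland, 5.04 in the stalk library, 4.94 in the anterior and 4.54 in the posterior pituitary. Outside the glands it was 3.71 in mammary replicate 1 and 1.09 to 2.40 in the 8 brain regions. In the other 81 libraries it ran from 0.28 in the library labelled Chorid_plexus to 1.60 in the thyroid, with a median of 0.79. The rule asks for gland levels above most other libraries, brain included, so the distance of the glands from all others was set by the choice of members and nothing is read from it. The 3 libraries next after most brain regions were the thyroid (1.60), Ant_Eye (1.55) and the bull testis (1.46), each higher than the pons (1.34) and thalamus (1.09). Among the 11 skeletal muscle libraries the diaphragm stood at 0.95, against 0.44 to 0.63 in the others. No spread is available for tissues with 1 library, so the order of these neighbours is not established.

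**Figure D2:**
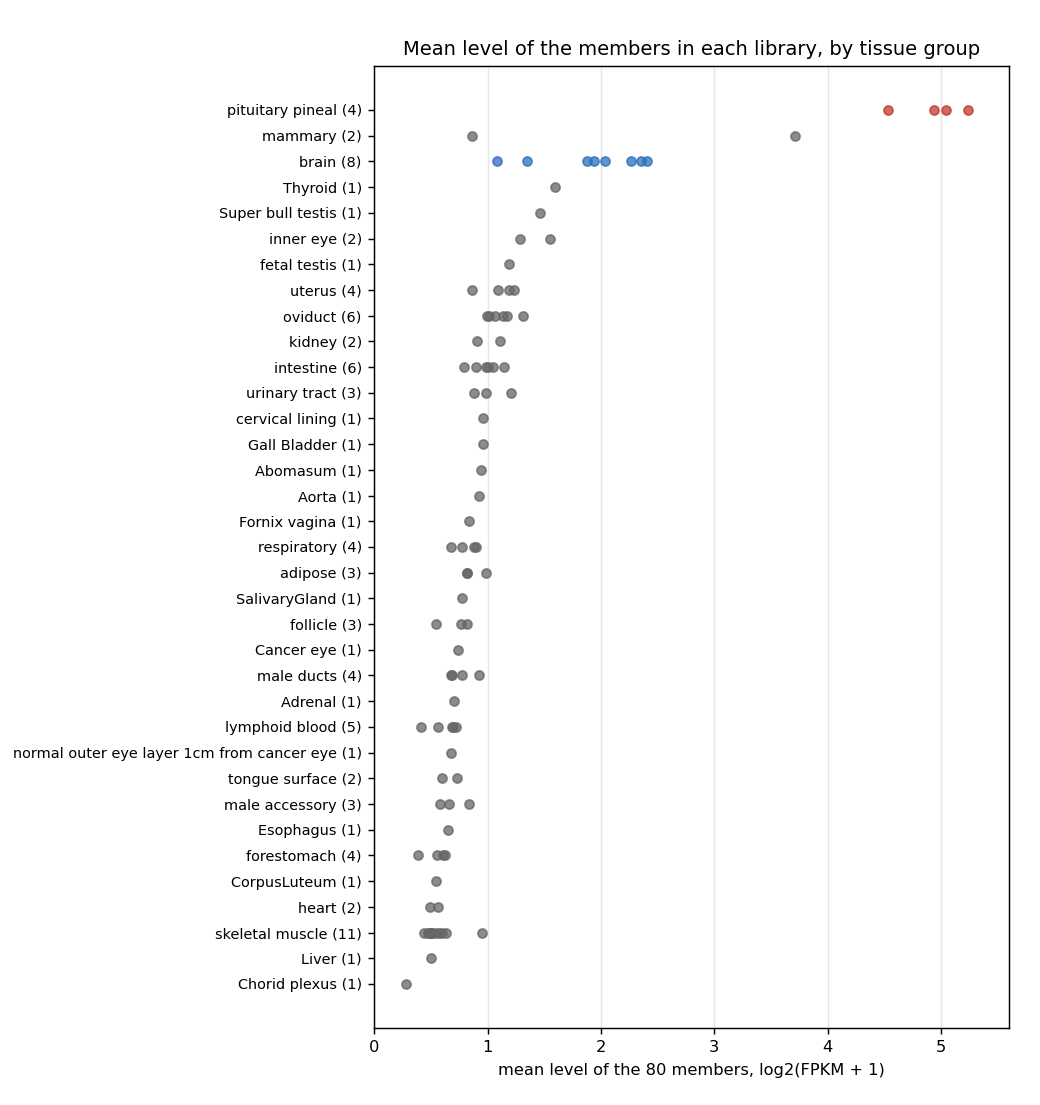
Mean level of the 80 members, log2(FPKM + 1), in each of 94 libraries, with 1 row per tissue group and the number of libraries in brackets; red points are the glands, blue points the brain, grey points all others. The 4 glands lie between 4.54 and 5.24, mammary replicate 1 at 3.71 and the brain regions between 1.09 and 2.40.

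The 4 glands were then compared with each other. The rule did not compare them, but it used the lowest of the 4 levels, which limits how far a member can fall in any gland, so these counts are a description. The pineal gland was the highest of the 4 in 33 members, the stalk library in 26, the anterior pituitary in 17 and the posterior lobe in 4. Among the 14888 genes at 1 FPKM or more in a gland, the shares highest in these libraries were 28.2% for the pineal gland, 51.2% for the stalk library, 9.16% for the anterior pituitary and 11.4% for the posterior pituitary. In the same order of glands the counts were 30, 15, 32 and 3 with quantile normalization and 32, 33, 12 and 3 with equal totals. Which gland led thus depended on the scaling, while the posterior pituitary was lowest in each. Each gland is 1 library, so none of these differences has a replicate check and no p-value is given.

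The posterior pituitary carried the members at a lower level than the anterior lobe. Its median difference from the anterior pituitary was -0.43 (log2) over the members and 0.18 over all genes, which puts the members 0.61 below the median gene (-0.61). A log2 difference of 1 or more was seen upward in 2 members, against 9.87% of all genes, and downward in 13, against 1.65%. With quantile normalization the counts were 2 and 31 and the median relative to all genes was -0.68, and with equal totals they were 2 and 11 and -0.60. ENSBTAG00000014758 went the other way, with 193 FPKM in the posterior pituitary, against 44.0 FPKM in the anterior pituitary. It was also high in the stalk library (120 FPKM) and low in the pineal gland (52.7 FPKM). ENSBTAG00000027017, next by its excess, had 66.2 FPKM in the posterior pituitary, against 34.2 FPKM in the anterior pituitary, and again the stalk library (67.8 FPKM) lay with the posterior lobe and the pineal gland (34.1 FPKM) with the anterior lobe.

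The stalk library differed most from the anterior pituitary, in the members and over all genes alike. A log2 difference of 1 or more was found upward in 15 members, against 20.6% of all genes, and downward in 17, against 3.26%. The median was -0.0045 over the members and 0.47 over all genes, so the members lay at -0.48 relative to the median gene. Quantile normalization gave 10 higher and 25 lower and a relative median of -0.57. Equal totals gave 21 higher and 9 lower and a median of 0.23 over the members, which was -0.47 relative to the median gene. The balance of higher and lower members thus turned with the scaling, and no direction is given for the members as a group except relative to the median gene. ENSBTAG00000037899 had 2068 FPKM in the stalk library, against 97.9 FPKM in the anterior pituitary, and 86.9 and 64.1 FPKM in the posterior pituitary and pineal gland. ENSBTAG00000019926 had 280 FPKM in the stalk library, against 12.7 FPKM in the anterior pituitary, 9.73 FPKM in the posterior pituitary and 20.1 FPKM in the pineal gland. In both genes the stalk stood alone and the other glands were close together. The reverse was seen in ENSBTAG00000005626, with 0.566 FPKM in the stalk library, against 18.4 FPKM in the anterior pituitary, 15.7 in the pineal gland and 5.45 in the posterior pituitary.

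The pineal gland was closest to the anterior pituitary in these genes, as it was over all genes at 1 FPKM or more in a gland. A log2 difference of 1 or more was found upward in 10 members, against 7.38% of all genes, and downward in 1, against 2.69%. The median was 0.30 over the members and 0.32 over all genes, a relative median of -0.02. Quantile normalization gave 4 higher and 6 lower with a relative median of -0.06, and equal totals gave 13 higher and 0 lower, so no direction is given for the members as a group. The largest pineal excess over the median of the other glands was that of ENSBTAG00000025233, with 93.9 FPKM in the pineal gland, against 37.0, 12.2 and 9.86 FPKM in the anterior pituitary, posterior pituitary and stalk library. ENSBTAG00000000438 followed, with 33.5 FPKM in the pineal gland, against 13.7, 5.09 and 5.31 FPKM in the same 3 libraries. Across the 80 members, Spearman's rho with the anterior pituitary was 0.97 for the pineal gland, 0.96 for the posterior pituitary and 0.84 for the stalk library. Across the 14888 genes it was 0.95, 0.92 and 0.88 in the same order, so this order is not particular to the members. These values describe pairs of libraries across genes, which are not independent replicates.

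Within the list, the ratio of the highest to the lowest gland had a median of 2.54 and ran from 1.02 to 32.5. The range among the 4 glands was under 1 on the log2 scale in 29 members, from 1 to 2 in 31 and 2 or more in 20.

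**Figure D3:**
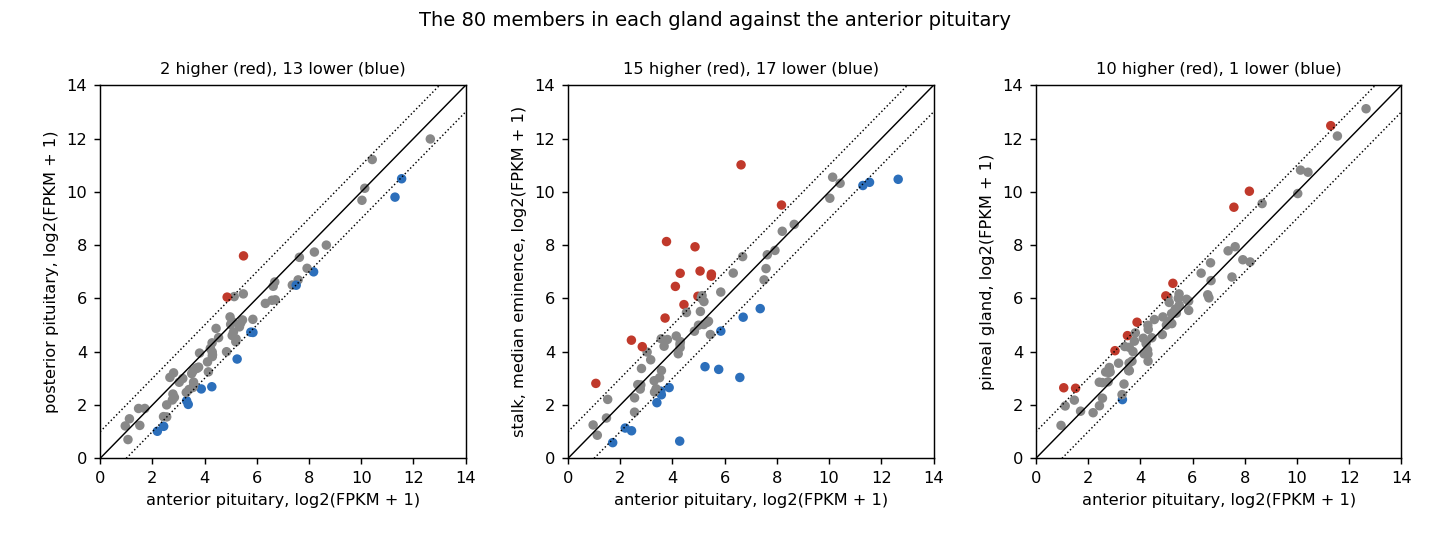
Level of each of the 80 members, log2(FPKM + 1), in the posterior pituitary, stalk and pineal libraries (vertical axes) against the anterior pituitary (horizontal axis); the solid line marks equality and the dotted lines a difference of 1. Points scatter most for the stalk library, with 15 members above and 17 below the dotted lines, and least for the pineal gland, with 10 above and 1 below.

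Outside the glands, mammary replicate 1 was the library that most often carried the members highest. It led the 90 libraries in 28 of the 80 members, among them 15 of the first 20 and 13 of the last 60 by the gap. Of the 65 members with 1 FPKM or more in at least 3 of the 90 libraries it led 21, against 1.44% of the 17963 genes that passed this filter. A brain library led 13 of the 65, against 11.5% of all genes, and the bull testis led 6, against 13.7%. Without mammary replicate 1, an alternative chosen after seeing the data, a brain library led 23 of the 65, against 11.8%, and the bull testis led 6, against 13.7%. The share of the bull testis was not above the background either way. In all, 26 libraries led at least 1 member and 14 of them led 1 only.

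Mammary replicate 1 was compared with mammary replicate 2 directly. A log2 difference of 1 or more was found upward in 58 of the 67 members at 1 FPKM or more in either library, against 9.01% of the 13989 genes at that level, and downward in none, against 57.8%. The other 13 members were under 1 FPKM in both. In mammary replicate 2, 40 of the 80 members were listed at 0, and the rule asks for low levels in most other libraries. A member at 0 there cannot be lower in mammary replicate 1, so nothing is read from the downward count. All genes were not matched for this low level. The median difference was 2.42 over the 80 members and -1.21 over all genes. The library expressed fewer genes in all, 10044 at 1 FPKM or more, against 13369 in mammary replicate 2. ENSBTAG00000038735 had 2268 FPKM in mammary replicate 1, against 2.03 FPKM in mammary replicate 2. ENSBTAG00000021588 had 1636 FPKM in mammary replicate 1 and was listed at 0 in mammary replicate 2. The median difference of the members was larger between these libraries than between any pair of glands. The rule limits how far a member can fall in any gland but not how far it can fall in a mammary library. Both mammary libraries are among the other libraries, most of which the rule asks to be low. It thus favours genes that are low in a library such as mammary replicate 2, while a few libraries can stay high. Nothing is read from the larger median difference, and the upward count is a description.

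Among the 4 glands, the pineal gland ran most nearly parallel to mammary replicate 1, in these genes and over all genes. Of the 59 members at 10 FPKM or more in the pineal gland, mammary replicate 1 had a median of 37.1% of the pineal FPKM, with quartiles of 28.2% and 42.7%, and none reached the pineal level. Over the 7384 genes at 10 FPKM or more in the pineal gland the median was 45.1%, with quartiles of 31.7% and 63.8%, and 836 reached the pineal level. The SD of the log2 difference over the members was 0.72 against the pineal gland, 0.96 against the anterior pituitary, 1.12 against the posterior pituitary and 1.68 against the stalk library. Over all genes the SDs in the same order were 1.12, 1.24, 1.24 and 1.33, so the pineal gland was closest there too. Each SD covers the genes at 10 FPKM or more in that gland, so the sets differ. The 3 set-aside identifiers stood at 40.8%, 47.3% and 39% of their pineal FPKM in mammary replicate 1, and at 8.90%, 61.2% and 129% of their level in the anterior pituitary. Mammary replicate 2 had a median of 0.053% of the pineal FPKM over the same 59 members. Each of these libraries is single, and whether this library matches its label was not tested.

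**Figure D4:**
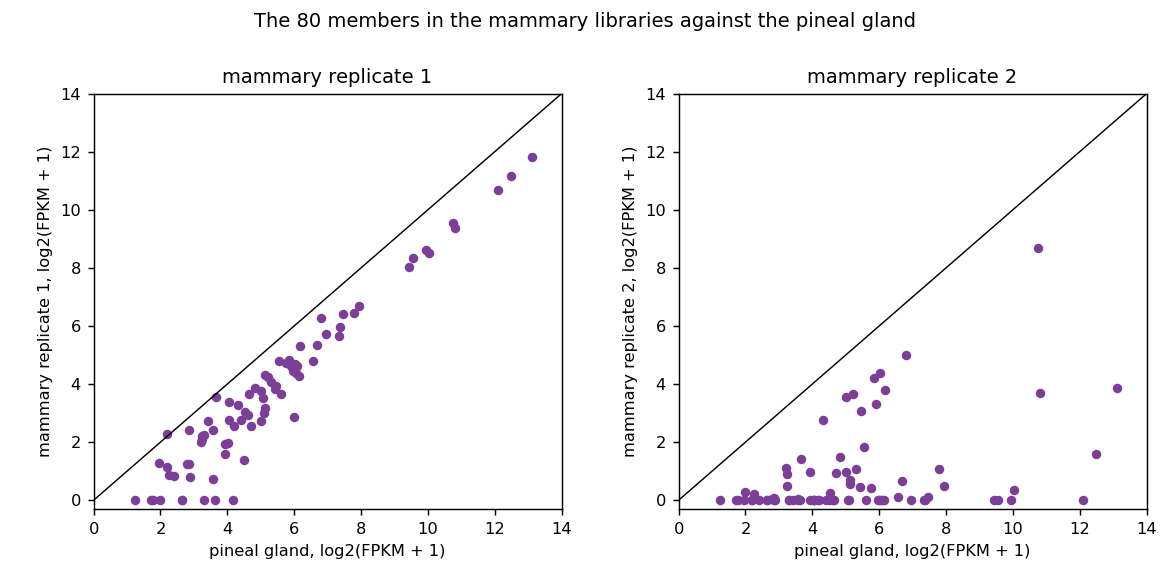
Level of each of the 80 members, log2(FPKM + 1), in mammary replicate 1 (left) and mammary replicate 2 (right) on the vertical axis against the pineal gland on the horizontal axis, with a line of equality. In mammary replicate 1 most members run parallel to the line, at a median of 37.1% of the pineal FPKM for those at 10 FPKM or more, and in mammary replicate 2 most lie near 0.

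The remaining question was which other tissues carry the members. The rule treats the 90 other libraries alike, so which of them carry the members was not used to choose them. A gene at gland level in all 8 brain regions could hardly have entered. The rule also keeps members low in most of these libraries, with a median of 0 in 37 of the 80. This leaves little room for a call of lower, so nothing is read from the counts of lower members. The shares over all genes below are not matched for this low level. Each class was tested with limma on log2(FPKM + 1) against the rest of the 90 libraries, with Benjamini-Hochberg adjustment over the 17963 genes tested. Called genes had an adjusted p below 0.05 and differed by 1 or more (log2) from the rest. Of the 80 members 65 could be tested, and the other 15 did not reach 1 FPKM in at least 3 of the 90 libraries. They include ENSBTAG00000010889 and ENSBTAG00000011124, the members with the largest gaps, which were high in mammary replicate 1. The shares below thus leave out the members found in the fewest other libraries.

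Brain carried many of the members. In the 8 brain regions 32 of the 65 members were higher than in the other 82 libraries, against 13.4% of all genes, and 1 was lower, against 6.46%. The median difference was 1.0 over the members tested and -0.08 over all genes. Of the 65, 7 passed the filter only through brain libraries, and 27 of the 32 called members passed it without them. Leaving out mammary replicate 1 gave 32 higher and 1 lower.

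ENSBTAG00000010897 had the largest difference, with 26.8, 79.8 and 135 FPKM as lowest, median and highest brain level, against 0, 0 and 85.9 FPKM in the other 82 libraries. Its log2 difference was 5.62 ± 0.47 (SE, 8 against 82 libraries; limma adjusted p = 1.52e-18), and 8 of 8 brain regions lay above the median of the rest. The ranges overlapped through the thyroid, mammary replicate 1 (61.1 FPKM) and the bladder. ENSBTAG00000017677 had 28.8, 78.5 and 153 FPKM in brain, against 0, 0.312 and 155 FPKM in the rest, where the thyroid was again highest. Its log2 difference was 5.38 ± 0.46 (limma adjusted p = 3.78e-18), with 8 of 8 regions above the median of the rest. In the glands these genes ran from 165 to 367 FPKM and from 186 to 245 FPKM, above every brain region. The 1 member lower in brain, ENSBTAG00000039812, had 0.169, 0.279 and 0.516 FPKM in brain, against 0, 1.35 and 29.4 FPKM in the rest (log2 difference -1.05 ± 0.37, limma adjusted p = 0.0228), and 0 of 8 regions lay above the median of the rest. The thyroid was the highest library of the rest for this gene too, and its gland levels ran from 19.8 to 42.2 FPKM.

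Brain regions did not carry the members evenly. In the diencephalon library 51 of 80 members reached 1 FPKM, and 48 did in the midbrain, 47 in the hippocampus and 45 in the temporal cortex. The cerebral cortex had 41 and the frontal cortex 39. The pons had 27 and the thalamus 26. The share of all genes at 1 FPKM or more was also lower in these last regions, 44.2% and 45.4%, against 54.2% in the diencephalon. Each region is 1 library, and the differences between regions were not tested.

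Few members were higher in intestine, where hormone cells lie scattered in the lining. limma called 2 of the 65 higher in 6 intestinal libraries than in the other 84, against 6.35% of all genes, and 0 lower, against 0.178%. At an unadjusted p under 0.05 there were 7 of the 65 members and 2909 of the 17963 genes. The share called higher is not above the background. ENSBTAG00000009836 had 80.7, 143 and 378 FPKM as lowest, median and highest intestinal level, against 0, 0.759 and 391 FPKM in the rest, where mammary replicate 1 was highest. Its log2 difference was 5.46 ± 1.01 (SE, 6 against 84 libraries; limma adjusted p = 3.10e-05), with 6 of 6 libraries above the median of the rest. In the glands it was even, between 822 and 1044 FPKM, and in brain it reached a median of 188 FPKM. ENSBTAG00000019926, the gene that stood out in the stalk library, had 1.09, 2.66 and 4.04 FPKM in intestine, against 0, 0 and 26.3 FPKM in the rest, with the diencephalon highest (log2 difference 1.32 ± 0.39, limma adjusted p = 0.0175, 6 of 6 libraries above the median of the rest). This call was lost with quantile normalization (limma adjusted p = 0.0649) and without the ascending colon, duodenum or jejunum (0.0715, 0.0798 and 0.0563), and over all its alternatives the adjusted p ran from 0.00283 to 0.0798.

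A few members were higher in the 2 inner eye libraries. Retina and pineal gland are known to share genes of light detection, which was the reason for this comparison. Neither library is labelled retina, so what the retina carries is not shown. limma called 5 of the 65 members higher than in the other 88 libraries, against 0.829% of all genes, and 0 lower, against 0%, with 9 members and 650 of all genes at an unadjusted p under 0.05. Of the 5, 1 passed the filter on low values only through the eye libraries, and 4 passed it without them. Without mammary replicate 1 the count was 4. ENSBTAG00000009059 had 101 FPKM in the pigment epithelium and 87.2 FPKM in the Ant_Eye library, against 0, 0.296 and 55.1 FPKM as lowest, median and highest of the rest, so the groups did not overlap. Its log2 difference was 5.37 ± 1.12 (SE, 2 against 88 libraries; limma adjusted p = 0.00131), with an adjusted p of 0.136 without the pigment epithelium, 0.131 without Ant_Eye and 0.0813 with a pseudocount of 0.1. The adjusted p ran from 0.000521 to 0.136 over all its alternatives. In the glands it ran from 55.3 to 123 FPKM. ENSBTAG00000027017, which lay with the posterior pituitary and stalk above, had 38.1 and 31.1 FPKM in the pigment epithelium and Ant_Eye, against 0, 0 and 33.6 FPKM in the rest, with the diencephalon highest (log2 difference 4.85 ± 0.64, limma adjusted p = 1.09e-08, range 1.27e-09 to 0.000323 over its alternatives). The count of 5 was 3 without the pigment epithelium and 1 without Ant_Eye, where the lone library is assumed to vary like the others. Whether the inner eye differed from brain or intestine in the members it carries was not tested.

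**Figure D5:**
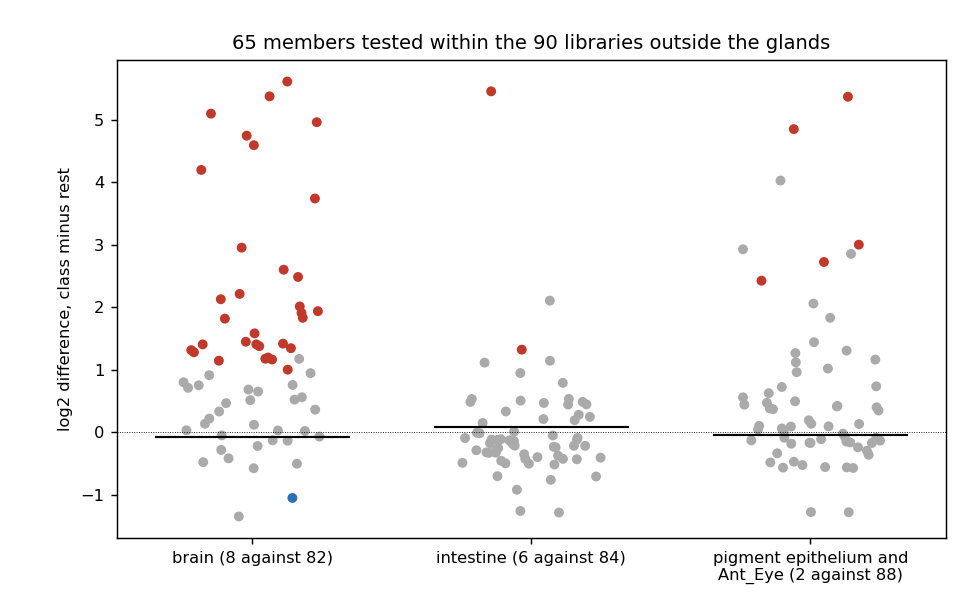
log2 difference of the 65 members tested in brain (8 against 82 libraries), intestine (6 against 84) and the 2 inner eye libraries (2 against 88), each class minus the rest of the 90 libraries outside the glands; red points were called higher by limma, blue lower, grey not called, and the black bar is the median of all genes. Brain shows 32 red points, intestine 2 and the inner eye 5.

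The genes most like the first 3 members over all 94 libraries were looked up among 18031 genes by Spearman correlation, 3 for each. Of these 9 genes, 4 were identifiers that the rule sets aside, counted once for each member they resembled, 3 were members and 2 were neither. The correlations ran from 0.50 to 0.71. The first member was listed at 0 in 73 and the second in 52 of the 90 libraries outside the glands, and all correlations share the 4 glands and mammary replicate 1. Without mammary replicate 1 the correlations ran from 0.49 to 0.69, 6 of the 9 pairs were the same, and 1 member, 4 set-aside identifiers and 4 other genes made up the pairs.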

How the data were processed

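Gene expression was measured in 94 libraries. The authors deposited 1 FPKM value per gene and library, and per the submitters' processing notes these came from HISAT2 and StringTie on UMD3.1. Tool versions, the annotation and any filter: not given in the sources used here. On log2(FPKM + 1), the scale used, differences of low genes are understated, and a 0 can be a failed estimate. The members and lists were chosen with earlier results of these data known. Libraries were grouped by tissue label. Classes were compared by a two-sided limma fit with trend (limma 3.58.1, R 4.3.3) on genes at 1 FPKM or more in at least 3 fitted libraries, without the 4 glands. The step was run on simulated independent normal values, which lack the many zeros of the members, so nothing is read from that run. Nothing says that libraries come from separate animals, so p-values measure the spread between libraries. Single libraries were compared by a log2 difference of at least 1. The rule for named genes was applied to identifiers, at most 2 in each direction of a comparison. The gene table used, of the assembly ARS-UCD2.0, matched 0 of 24616 identifiers, so marker lists and promoter motifs were not run. Python 3.11.15 with numpy 2.4.6 and pandas 2.3.3 was used. Alternatives were a pseudocount of 0.1, no filter, equal totals, quantile normalization, other forms of the rule, and libraries left out. A rescaling without the 3 set-aside identifiers, and leaving mammary replicate 1 out of the highest-library counts and the most alike genes, were added after seeing the data.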

Additional observations from a re-analysis of the deposited data

Results flagged for a closer look

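In 28 sets of 4 to 10 libraries (the mean level of the members in each tissue group, and the named members in the 4 glands) the highest or lowest library was compared with the others by its gap over the range of the set, and 3 stood apart. Chance flags about 1 in 20 sets of values not chosen for their spread. That rate does not apply to these, since ENSBTAG00000037899 and ENSBTAG00000019926 were named for their excess in the stalk library and ENSBTAG00000010889 for its gap. ENSBTAG00000037899 had 2068 FPKM in the stalk library, against 64.1 to 97.9 FPKM in the other glands. ENSBTAG00000019926 had 280 FPKM in the stalk library, against 9.73 to 20.1 FPKM in the other glands. ENSBTAG00000010889 had 686 FPKM in the pineal gland, against 103 to 191 FPKM in the other glands.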

How the results depend on the processing

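The list itself depended on the form of the rule. Of the 80 members 44 stayed among the first 80 with the 90th percentile, 25 with the maximum, 49 with the mean over the glands and 48 with their median, and 48 to 74 when 1 gland was left out, with 48 without the stalk library. Pseudocount, scaling and leaving out mammary replicate 1 kept 59 to 75. The anterior pituitary was the highest gland in 32 members with quantile normalization and in 31 with the rescaling without the set-aside identifiers, and the stalk in 15 and 14. When 1 gland was left out, the remaining counts ran from 17 to 36 for the anterior pituitary, 4 to 8 for the posterior pituitary, 27 to 36 for the stalk and 36 to 49 for the pineal gland, since members of the missing gland pass to another.

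Against the anterior pituitary, members at least 1 lower (log2) in the posterior pituitary numbered 31 with quantile normalization and 36 with the rescaling, and 1 was higher with the rescaling. In the stalk 9 were lower and 21 higher with equal totals, and 9 were higher with the rescaling. In the pineal gland 4 were higher and 6 lower with quantile normalization, 4 higher and 4 lower with the rescaling, and 2 and 0 lower with a pseudocount of 0.1 and equal totals. In mammary replicate 1 against replicate 2, 1 member was lower with a pseudocount of 0.1, with equal totals and with the rescaling. Intestine had 1 member higher with quantile normalization and 1 to 2 when a library was left out. The inner eye had 3 with a pseudocount of 0.1, 3 with quantile normalization and 1 to 3 when a library was left out. The brain count stayed between 28 and 37 under every alternative run. The rescaling was not run for brain, intestine and inner eye. The cause of these shifts was not tested.

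No paired analysis was possible because the labels name no animal. Read depth is unknown, so no counting error or detection limit can be given.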
